A study of Homo sapiens with 4 samples.

Results

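The t(8;21) marker genes examined here are 9 genes whose activity is tied to acute myeloid leukaemia with the t(8;21) translocation: POU4F1, ROBO1, PAX5, JUP, UBASH3B, CCND2, RASSF2, PLCG1 and LAT2. Their sites were chosen as every peak that the authors' annotation credits to one of these symbols, which gave 18 of the 20556 peaks of the first deposited table. These 18 peaks belonged to 8 of the 9 genes, since no row carried the symbol CCND2. Of the 13577 peaks of the second deposited table, 10 overlapped one of the 18, at 5 genes. The assay was ATAC-seq, where a transposase cuts open chromatin and tags it for sequencing. It was run on Kasumi-1, a human acute myeloid leukaemia cell line that carries t(8;21). Of the 4 libraries, 2 were labelled sgNT with the genotype WT, and 2 carried a SETD8 knockout made with CRISPR/Cas9. SETD8, also named KMT5A, is the enzyme that adds 1 methyl group to histone H4 at lysine 20. All 4 libraries share the leukaemic fusion, since they come from a single cell line. The labels do not say which guides were used, whether the knockout cells were a pool or a clone, how long after editing they were taken, or whether the 2 libraries of a group came from separate cultures.

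The translocation joins the DNA-binding part of RUNX1, a transcription factor of blood formation, to RUNX1T1, a protein that recruits corepressors and histone deacetylases. The fusion protein binds RUNX sites across the genome, silences many myeloid genes and keeps others active. POU4F1 and PAX5, transcription factors of sensory neurons and of B cells, are active in this leukaemia although neither is typical of myeloid cells. JUP, UBASH3B, PLCG1 and CCND2 have been linked to growth or signalling of t(8;21) cells, and RASSF2 and LAT2 to genes that the fusion holds down.

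The promoter sequences below are from the 5 genes with a first-table peak of their own symbol over a RefSeq start site, and from another start of ROBO1 without a peak. Each is the 250 bases before a RefSeq start site (assembly GRCh38.p14), 5′ to 3′ on the strand of the gene. Capitals mark matches to 7 short motifs searched on both strands. They are the RUNX core spelled TGTGGT, the core of ETS factors spelled GGAAGT, the AP-1 element spelled TGANTCA, the E-box spelled CACGTG, the SP and KLF box spelled GGGCGG, the NFY box spelled CCAAT and the TATA element spelled TATAAA. No match overlapped another in these windows.
ROBO1, inner start, chr3:79019460-79019709, minus strand: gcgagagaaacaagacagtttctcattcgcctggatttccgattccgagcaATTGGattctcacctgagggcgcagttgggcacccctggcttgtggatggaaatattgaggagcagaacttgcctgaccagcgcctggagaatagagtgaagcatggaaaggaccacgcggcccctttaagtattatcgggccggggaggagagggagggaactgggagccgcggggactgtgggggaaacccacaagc
ROBO1, outer start, chr3:79767999-79768248, minus strand: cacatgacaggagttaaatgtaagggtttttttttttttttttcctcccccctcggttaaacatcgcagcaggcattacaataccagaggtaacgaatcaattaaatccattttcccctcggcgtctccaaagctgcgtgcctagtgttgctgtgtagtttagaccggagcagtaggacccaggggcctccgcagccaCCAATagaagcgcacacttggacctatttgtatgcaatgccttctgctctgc
JUP, chr17:41786712-41786961, minus strand: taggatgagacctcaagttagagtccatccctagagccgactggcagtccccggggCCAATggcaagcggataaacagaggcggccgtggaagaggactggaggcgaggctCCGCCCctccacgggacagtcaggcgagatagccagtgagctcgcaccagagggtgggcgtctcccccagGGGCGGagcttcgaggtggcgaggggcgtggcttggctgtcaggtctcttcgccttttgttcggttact
PAX5, chr9:37034269-37034518, minus strand: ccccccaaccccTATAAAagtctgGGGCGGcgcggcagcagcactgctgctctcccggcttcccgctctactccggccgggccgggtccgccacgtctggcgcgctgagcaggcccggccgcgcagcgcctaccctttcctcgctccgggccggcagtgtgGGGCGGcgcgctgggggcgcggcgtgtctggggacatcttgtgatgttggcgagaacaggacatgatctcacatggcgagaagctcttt
POU4F1, chr13:78603553-78603802, minus strand: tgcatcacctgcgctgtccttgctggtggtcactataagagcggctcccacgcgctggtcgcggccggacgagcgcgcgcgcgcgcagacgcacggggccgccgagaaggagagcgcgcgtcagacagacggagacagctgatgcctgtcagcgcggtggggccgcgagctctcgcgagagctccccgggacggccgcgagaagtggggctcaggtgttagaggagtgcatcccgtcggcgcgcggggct
UBASH3B, chr11:122655472-122655721, plus strand: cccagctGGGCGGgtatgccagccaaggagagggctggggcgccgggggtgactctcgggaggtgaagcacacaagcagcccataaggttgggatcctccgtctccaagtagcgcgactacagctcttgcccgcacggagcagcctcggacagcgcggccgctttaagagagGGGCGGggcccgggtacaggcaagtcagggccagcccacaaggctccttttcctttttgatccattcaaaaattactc
RefSeq gave 9 such windows for 7 of the 9 genes, with LAT2 and CCND2 not matched, and 7 of the 9 windows touched a peak of the first table. The windows of PLCG1, PAX5, POU4F1, ROBO1 at the inner start and JUP at its outer start lay wholly inside a first-table peak, and that of UBASH3B shared 218 of its 250 bases with one. The outer ROBO1 start and the RASSF2 window touched no peak of either table. In the second table the PAX5 and POU4F1 windows touched no peak. The inner ROBO1 window shared 164 bases with one there and that of UBASH3B 236, and those of PLCG1 and the outer JUP start lay wholly inside one. GGGCGG stood in 4 of the 9 windows, against 42.6% of all 35116 RefSeq windows of this length, and CCAAT in 3 of the 9, against 32.0%. TGTGGT, the core that RUNX proteins read, stood in 0 of the 9 windows, against 3855 of all 35116. That count says only that these letters are not in these 250 bases. CpG pairs ranged from 7 in the RASSF2 window to 41 in that of PLCG1, which held 82.8% G and C. The POU4F1 window held 37 CpG pairs and 71.2% G and C, and 96.0% of all windows held fewer CpG pairs, whereas the outer ROBO1 window held 9.

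The 2 deposited tables were scaled separately. The first names no library and no unit, and its direction, treated against control, is known only from the name of the table. The second compares the knockout and sgNT libraries numbered 2, with 1 library in each group. In total 2091322 knockout reads and 5345251 control reads lay in peaks of the second table, as recovered from rounded levels, and the median peak had 125 knockout reads and 296 control reads after the authors' scaling. The scaled knockout total was 0.426 of the control total, so reads in peaks were fewer in the knockout library as a whole. Reads outside peaks were not analysed here, and the part of this gap in the negative sign shared by nearly all peaks was not tested. The promoter of the targeted gene, KMT5A, stood at a log2 fold change of -0.82 and -1.45 in the first and the second of the authors' deposited tables. Promoter accessibility does not show whether a coding sequence was cut, so this value does not check the labels. Promoter peaks were present at 6 of 8 myeloid progenitor markers in both tables. Of 16 markers of T, B, erythroid, liver, epithelial and neural cells, 4 had one in the first table (CD8A, CD79A, EPCAM and CD3D) and 1, CD8A, in the second. Here and below, a peak of the second table was given a gene and class only through the overlapping peak of the first. Promoter counts of the second table therefore leave out peaks without such a partner, and a marker with only such a peak would be missed. Each fold change below is knockout against control on the log2 scale. A site open in fewer cells and a site less open in each cell cannot be told apart in such bulk libraries.

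All 18 marker-gene peaks had a negative fold change in the first of the authors' deposited tables, from -1.81 at the ROBO1 promoter to -0.19 at an intron of UBASH3B. All 10 joined peaks did so in the second of the authors' deposited tables, from -1.92 at ROBO1 to -0.76 at the UBASH3B promoter. Nearly all peaks of both tables share this sign, 92.3% of the first and 98.6% of the second. The members' median was -0.925 in the first of the authors' deposited tables, where the median of all peaks was -0.87. It was -1.195 in the second of the authors' deposited tables, where that of all peaks was -1.23. Relative to the median of all peaks the members' median was -0.055 and 0.035 in the first and the second table. Single genes stood further off, with ROBO1 and JUP on the low side of both tables and the UBASH3B intron peak farthest from the start site on the high side of both.

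No marker-gene peak passed the authors' test. The count at an adjusted p under 0.05 was 0 of 18 in the first of the authors' deposited tables and 0 of 10 in the second of the authors' deposited tables, and the share over all peaks was 0% in each. At an unadjusted p under 0.05 the counts were also 0 of 18 and 0 of 10, against 1.6% and 0.14% of all peaks. The smallest p among the members was that of ROBO1 in both authors' deposited tables, 0.103 (adjusted p 0.731) in the first and 0.137 (adjusted p 0.578) in the second. The second table has no replicates behind its test, and the number of libraries behind the first is not stated. A fold change of -1 or lower, which is a level at or under 50% of the control, was found at 8 of 18 member peaks of the first of the authors' deposited tables (44.4%), against 38.9% of all peaks. It was found at 7 of 10 in the second of the authors' deposited tables, against 76.1% of all. Neither share is far from its background. No member peak was higher by at least 1 in either table, against 0.511% and 0.133% of all peaks.

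POU4F1, a POU-domain transcription factor of sensory neurons, had a single peak, on chromosome 13 at 78603395 to 78603960, over its start site. Its mean level, 2 raised to the deposited log2 level and taken as normalised reads, was 110, or 194 per kb of peak, and 39.9% of all peaks had fewer per kb. The fold change was -1.07 in the first of the authors' deposited tables (p = 0.292, adjusted p 0.731), and 32.1% of all peaks were lower. The 21 peaks of other genes within 2.5 Mb had a median of -0.86, and the POU4F1 promoter stood at -0.21 relative to them. No peak of the second table overlapped it, so this value has no second measurement.

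PAX5, the factor that commits lymphoid progenitors to the B-cell lineage, had a pair of promoter peaks in the first table, and only the inner one was found again in the second. The peak over the RefSeq start, on chromosome 9 at 37034202 to 37035020, held 223 normalised reads and stood at -1.07 in the first of the authors' deposited tables. The inner peak, at 37027297 to 37028088 and at -722 bases from an annotated start of another PAX5 transcript, held 495 normalised reads. Per kb of peak the inner site held 624 and the outer 272, so the inner site was the more open. Its fold change was -0.71 in the first of the authors' deposited tables, above the median of all peaks, and 62.6% of peaks were lower. In the second table the inner site held 212 reads in the knockout library against 662 normalised reads in the control. The knockout value was 32.3% of the control, a fold change of -1.63 in the second of the authors' deposited tables (95% counting interval -1.87 to -1.42, adjusted p 0.578). That interval lies below the table's median of -1.23, and 10.3% of all peaks were lower. Neighbours within 2.5 Mb had medians of -1.015 over 62 peaks and -1.215 over 52. Relative to its neighbours the inner PAX5 promoter stood at 0.305 and at -0.415 in the first and the second table. Its position relative to other peaks changed sides between the tables.

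The counting intervals used here are exact binomial intervals on the knockout share of the reads of a peak in the second table. They cover counting error only and compare those 2 libraries, not the conditions. Of the 10 joined peaks, 3 had an interval wholly below the table's median fold change (ROBO1, PAX5 and JUP promoters), against 16.7% of all peaks of the table. Another 2 had one wholly above it, the promoter and the last intron peak of UBASH3B, against 16.7% of all peaks. The other 5 spanned the median.

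ROBO1, a receptor for Slit proteins known for guiding axons, had 1 peak, on chromosome 3 at 79018737 to 79019755. It covers the inner RefSeq start whose sequence is printed above, 749 kb (peak centre) inside the start of the longest transcript, where no peak was listed. The mean level was 265 normalised reads, or 260 per kb, and 57.8% of all peaks had fewer per kb. The fold change was -1.81 in the first of the authors' deposited tables, and 2.55% of all peaks were lower. Its partner in the second table, at 79018426 to 79019623, held 49 knockout reads against 185 normalised control reads. The knockout value was thus 26.4% of the control, the lowest ratio among the 10 joined peaks. The fold change was -1.92 in the second of the authors' deposited tables (95% counting interval -2.39 to -1.46), with 1.89% of all peaks lower. Of the 11117 peaks joined between the tables, 14 others were as low as ROBO1 or lower in both. ROBO1 lies in a region with few peaks: 4 peaks of other genes lay within 2.5 Mb in the first table, and the second had 0. Those 4 stood between -2.11 and -0.80 in the first of the authors' deposited tables, with 2 of them lower than ROBO1.

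JUP encodes plakoglobin, or gamma-catenin, a protein of desmosomes and adherens junctions that can also act in Wnt signalling. Its promoter peak, on chromosome 17 at 41786064 to 41787079, was the strongest of the 18, with a mean level of 639 normalised reads. Per kb it held 629, more than 92.0% of all peaks, close to the 624 of the inner PAX5 site and below the 652 of a UBASH3B intron peak. The fold change was -1.21 in the first of the authors' deposited tables, and 22.0% of all peaks were lower. In the second table the promoter held 290 knockout reads against 923 normalised control reads, or 31.4% of the control. This gave -1.67 in the second of the authors' deposited tables (95% counting interval -1.86 to -1.48), with 8.35% of all peaks lower. A weaker peak in intron 1 of 14, at 41778872 to 41779228, held 81.6 normalised reads and stood at -1.35 in the first of the authors' deposited tables. Other genes around JUP were low as well. Median values within 2.5 Mb were -1.155 over 96 peaks of the first table and -1.55 over 89 peaks of the second. Relative to those neighbours the JUP promoter stood at -0.055 and -0.12 in the first and the second table, and 42.7% and 31.5% of the neighbours were lower still. The part of the region in the values of JUP was not tested.

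**Figure D1:**
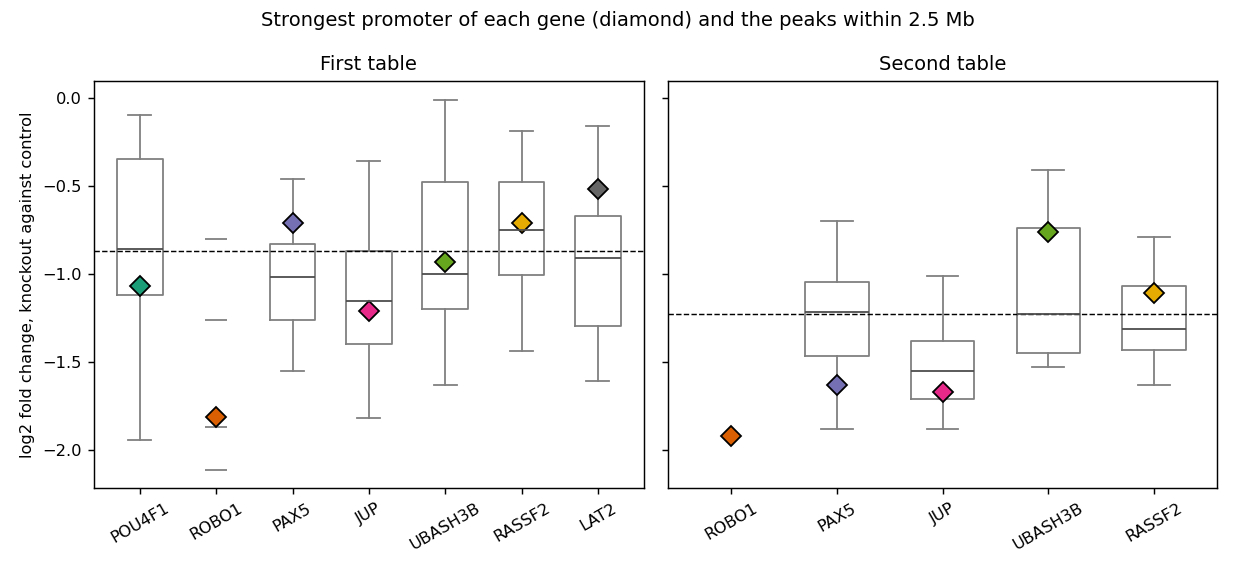
Log2 fold change of the strongest promoter peak of each gene in each table (diamond) beside the peaks within 2.5 Mb not credited to that gene. Boxes give quartiles and median, and whiskers the 5th and 95th percentile. Grey ticks are single peaks where fewer than 10 were present. The dashed line is the median of all peaks of the table. JUP sits inside a low region in both tables. The UBASH3B promoter in the second table, at -0.76, stands 0.47 above the median of its 17 neighbours. Of these neighbours 70.6% were lower. They include a peak inside UBASH3B itself, at -0.61, which has no partner in the first table and so carries no gene.

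UBASH3B, also named STS-1 or TULA-2, is a phosphatase that removes activating phosphates from tyrosine kinases such as SYK, and it binds the ubiquitin ligase CBL. It had the most peaks of the 9 genes, with 1 at the promoter and 5 in intron 1 of 13, and together they held 1568 normalised reads in the first table. The promoter peak, on chromosome 11 at 122655504 to 122656929, held 399 normalised reads over 1426 bases. Per kb that was 280, and 3 of the intron peaks, at 652, 570 and 428, exceeded it along with a narrow one at 412. The most open of them, at 122697662 to 122698172, lies 42.2 kb from the gene start.

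The 6 sites differed from each other by up to 0.88 in the first table. The promoter stood at -0.93 in the first of the authors' deposited tables, near the median of all peaks. The intron peaks, in order from the gene start, stood at -0.57, -1.07, -0.83, -0.89 and -0.19 in the first of the authors' deposited tables. The last of these, at 122756428 to 122756898 and 101 kb from the start, had the highest value of all 18 marker-gene peaks, and 88.1% of all peaks were lower. Of the 6 sites, 5 were found again in the second table, all but the narrow peak at 122695341 to 122695569. The promoter held 251 knockout reads against 425 normalised control reads, or 59.0%, the highest ratio of the 10 joined peaks. Its fold change was -0.76 in the second of the authors' deposited tables (95% counting interval -0.99 to -0.54, adjusted p 0.62), and 89.8% of all peaks were lower. The intron peaks at 42.2, 61.8 and 88.4 kb held 161, 83 and 89 knockout reads against 375, 205 and 199 normalised control reads. They stood at -1.22, -1.31 and -1.17 in the second of the authors' deposited tables, with intervals that span the median. The last intron peak held 112 against 199 and stood at -0.83 in the second of the authors' deposited tables (95% counting interval -1.17 to -0.50). It was above the median of all peaks in both tables, by 0.68 and 0.40. It was above the median of its neighbours within 2.5 Mb by 0.82 and 0.40. Peaks of 1 gene thus took values on both sides of the median, and the promoter stood at -0.06 from it in the first table and 0.47 above it in the second.

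**Figure D2:**
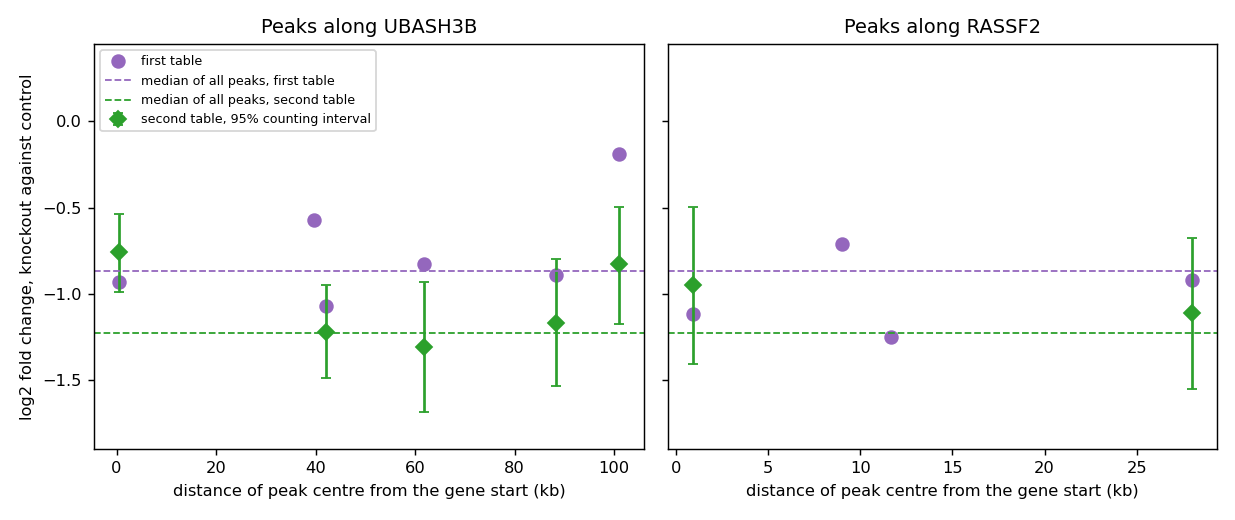
Log2 fold change of each peak of UBASH3B (left) and RASSF2 (right) by the distance of its centre from the gene start in kb, in the first table (circles) and the second (diamonds with 95% counting intervals); dashed lines are the medians of all peaks of each table. The last UBASH3B peak, at 101 kb, lies above both medians, at -0.19 and -0.83.

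PLCG1, the phospholipase that cuts a membrane lipid into the second messengers IP3 and diacylglycerol, and LAT2, a membrane adaptor of B and myeloid cells that docks such enzymes, had 1 peak each. The PLCG1 peak, on chromosome 20 at 41150540 to 41151112 in intron 2 of 32, held 103 normalised reads and stood at -0.77 in the first of the authors' deposited tables. Its 20 neighbours within 2.5 Mb had a median of -0.755. The LAT2 peak, on chromosome 7 at 74217555 to 74218141, is classed as a promoter, at -2317 bases from the start of an annotated transcript. The peak lies inside the RefSeq gene, which runs from 74210006 to 74229834, and at neither of its ends. It held 119 normalised reads and stood at -0.52 in the first of the authors' deposited tables, with 75.2% of all peaks lower and its 66 neighbours at a median of -0.91. Neither overlapped a peak of the second table.

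RASSF2, a RAS-binding protein with tumour suppressor function, had 4 peaks, all classed as promoter, at several annotated starts. From the gene start inward they lie on chromosome 20 at 4822378 to 4823064, 4814259 to 4814972, 4811650 to 4812259 and 4795318 to 4795829. Their levels were 127, 237, 189 and 103 normalised reads, and per kb 185, 332, 309 and 200. In the same order they stood at -1.12, -0.71, -1.25 and -0.92 in the first of the authors' deposited tables, a range of 0.54. The strongest site and the next one inward thus lay on opposite sides of the median of all peaks. Only the outermost and the innermost were found in the second table. The outermost held 61 knockout reads against 118 normalised control reads and stood at -0.95 in the second of the authors' deposited tables (95% counting interval -1.41 to -0.49). The innermost held 64 against 138 and stood at -1.11 in the second of the authors' deposited tables (95% counting interval -1.55 to -0.67). Both intervals span the median.

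CCND2, the D-type cyclin that drives entry into the cell cycle with CDK4 and CDK6, had no peak under its own symbol, and PLCG1 none at its start. In the first table a peak credited to another gene lay near the CCND2 start, and one covered the PLCG1 start. This was noticed after the values were seen. A peak on chromosome 12 at 4272101 to 4272978 ends 784 bases before the CCND2 start at 4273762 and is credited to TIGAR, a neighbouring gene. It held 164 normalised reads and stood at -1.19 in the first of the authors' deposited tables (adjusted p 0.731), with 23.1% of all peaks lower. It had no partner in the second table. A peak on chromosome 20 at 41136710 to 41137788 covers the PLCG1 start at 41137543 and is credited to the antisense gene PLCG1-AS1. It held 220 normalised reads and stood at -0.67 in the first of the authors' deposited tables. Its partner held 224 knockout reads against 455 normalised control reads and stood at -1.02 in the second of the authors' deposited tables (95% counting interval -1.26 to -0.79), which spans the median. Another peak credited to PLCG1-AS1, at 41142977 to 41143318, lies inside PLCG1, 5434 bases past its start. It held 77.7 normalised reads and stood at -0.14 in the first of the authors' deposited tables, with 89.4% of all peaks lower. This peak had no partner in the second table. These peaks are not counted among the 18.

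**Figure D3:**
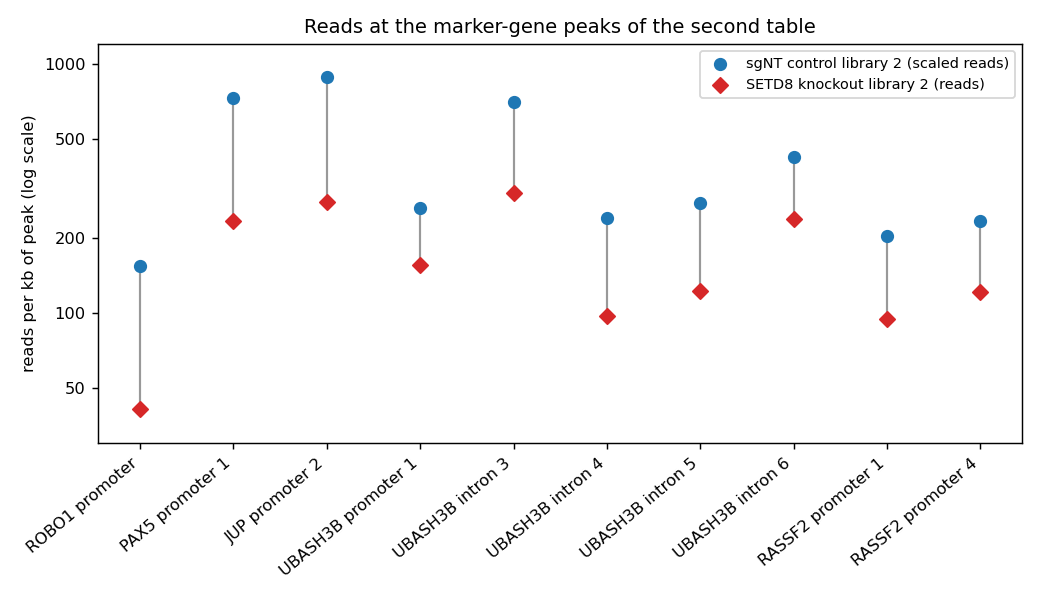
Reads per kb of peak, on a log axis, at the 10 joined marker-gene peaks of the second table, for the sgNT library 2 after the authors' scaling (blue circles) and the knockout library 2 (red diamonds). The knockout point is lower at every peak, with the longest line at ROBO1 (40.9 against 154) and the shortest at the UBASH3B promoter (156 against 264).

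Of the 10 joined peaks, 3 lay on the same side of both medians, against 55.3% of all 11117 joined peaks. Below both were the ROBO1 and JUP promoters, and above both was the last UBASH3B intron peak. The inner PAX5 promoter, 4 UBASH3B peaks and the 2 RASSF2 peaks lay on different sides. Of these 7 peaks, 5 had a counting interval that spans the median of the second table, so their side there is not settled by the reads. At 3 of the UBASH3B peaks one of the distances from the median was small, with values of -0.20 and 0.01, 0.04 and -0.08, and -0.02 and 0.06 in the 2 tables. The UBASH3B promoter, at -0.06 and 0.47, and the innermost RASSF2 peak, at -0.05 and 0.12, were also near the median of the first table. Farther from both medians were the inner PAX5 promoter, at 0.16 and -0.4, and the outermost RASSF2 peak, at -0.25 and 0.28. The first table does not name its libraries, so it is not known whether the tables share any. Over the strongest promoter peak of each gene, the 7 genes with one had a median of -0.93 in the first of the authors' deposited tables, and all 10187 genes with one had the same. For 5 genes the median was -1.63 in the second of the authors' deposited tables, where 8379 genes had one of -1.25. That -1.63 is the value of the inner PAX5 promoter. The strongest RASSF2 promoter was a different site in each table, at -0.71 in the first and -1.11 in the second. The members' medians of the 2 tables therefore cover unlike genes and sites. At promoters, 3 of 7 genes stood at -1 or lower in the first table and 4 of 5 in the second, against 43.3% and 83.1% of all genes. The other 4 of the 9 genes had no promoter peak joined to the second table.

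**Figure D4:**
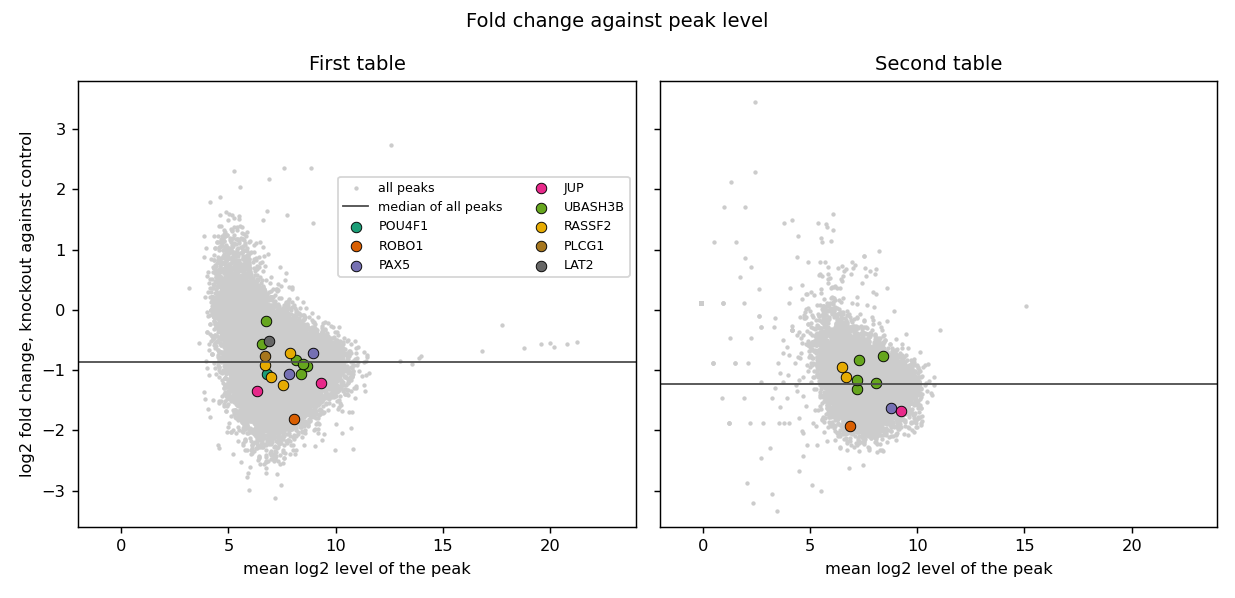
Log2 fold change against the mean log2 level of a peak in the first (left) and second (right) deposited table, with all peaks in grey, their median as a line and the marker-gene peaks coloured by gene. The members spread over mean levels from 6.35 to 9.32 in the first table, and ROBO1 lies in the lower part of the cloud in both.

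Related genes of each pathway were taken from 8 lists of 96 genes in all. Of these, 52 had a promoter peak in the first table, the second had 34 among its joined peaks, and 0 passed an adjusted p of 0.05 in either of the authors' deposited tables. At the strongest promoter peak, 16 of the 52 stood at -1 or lower in the first table and 26 of the 34 in the second, against the 43.3% and 83.1% of all genes given above. None was higher by at least 1. The Slit-Robo list had promoter peaks at 4 of 9 genes of the first table, and 3 of them stood at -1 or lower, against 43.3% of all genes. In the second table the count was 1 of 2, against 83.1%. ROBO3, a receptor of the same family, and SLIT3, a ligand, stood at -1.56 and -1.33 in the first of the authors' deposited tables. SRGAP1 and SRGAP2, GTPase regulators that bind Robo receptors, stood at -1.03 and -0.76 there and at -0.98 and -1.47 in the second of the authors' deposited tables.

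B-cell genes other than PAX5 had promoter peaks at 4 of 10, with a median of -0.405 in the first of the authors' deposited tables and 0 of 4 at -1 or lower, against 43.3% of all genes. TCF3 alone had one among the joined peaks of the second of the authors' deposited tables, at -1.18, so there 1 of 1 stood at -1 or lower, against 83.1% of all genes. TCF3, a helix-loop-helix factor, and CD79A, a subunit of the B-cell receptor, stood at -0.77 and -0.73, and CD22 and EBF1 at -0.08 and -0.02 in the first of the authors' deposited tables. EBF1 had a weak peak of 34.3 normalised reads. The genes of catenin, junctions and Wnt signalling had promoter peaks at 7 of 14. APC, which marks beta-catenin for destruction, was lowest in both tables, at -1.15 and -1.84 in the authors' deposited tables, followed by the kinase GSK3B at -1.05 and -1.38. AXIN1 and LEF1, at -0.09 and 0.05, were the highest of that list in the first of the authors' deposited tables.

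Adaptor and phospholipase signalling was the fullest list, with promoter peaks at 15 of 19 genes in the first table, and the second had 11. The median was -0.75 in the first of the authors' deposited tables and -1.18 in the second of the authors' deposited tables. At -1 or lower stood 3 of 15 genes of the first table, against 43.3% of all genes, and 10 of 11 of the second, against 83.1%. FYN, a SRC-family kinase, and DGKA, which consumes diacylglycerol, were lowest in the first of the authors' deposited tables, at -1.21 and -1.15. GRB2 and SOS1, which link receptors to RAS, were lowest in the second of the authors' deposited tables, at -1.81 and -1.63. LCK, at 0.24, and VAV1, at -0.38, were the highest in the first of the authors' deposited tables, and PLCG2, the paralogue of PLCG1, and DGKA were so in the second of the authors' deposited tables, at -0.71 and -1.01.

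Other D-type cyclins and the cell-cycle genes listed with them had promoter peaks at 7 of 8 genes in the first table, and the second had 6. RB1 and CDK6 were lowest at -1.20 and -1.08, and CDKN1B and CCND3 highest at -0.72 and -0.78, in the first of the authors' deposited tables. CDK4 and CDKN1A were lowest at -1.33 and -1.26, and CDKN2C and CCND3 highest at -0.96 and -1.03, in the second of the authors' deposited tables. The RASSF and Hippo genes had promoter peaks at 5 of 12, from RASSF3 at -1.26 and RASSF4 at -0.86 to SAV1 at -0.60 and the kinase STK3 at -0.39 in the first of the authors' deposited tables. The 3 found in the second of the authors' deposited tables were RASSF5 at -1.37 and RASSF3 and STK3 at -1.02 each. POU4F2 and POU4F3 had 0 peaks in the first table.

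Other genes tied to t(8;21) or to the fusion had promoter peaks at 10 of 22 in the first table and at 7 in the other, with medians of -0.92 and -0.89 in the authors' deposited tables. OGG1, a DNA glycosylase gene, and SPI1, the myeloid factor PU.1, were lowest in the first of the authors' deposited tables, at -1.45 and -1.41. CD34 and KIT, which mark blood progenitors, were highest in the first of the authors' deposited tables, at -0.64 and -0.61. ID1, an inhibitor of helix-loop-helix factors, and OGG1 were lowest in the second of the authors' deposited tables, at -1.39 and -1.12, and CD34 and RUNX1 highest, at -0.60 and -0.74. Of this list 4 of 10 promoters stood at -1 or lower in the first table, against 43.3% of all genes, and 2 of 7 in the second, against 83.1%. The marker genes had 3 of 7 and 4 of 5, and the difference between the lists was not tested.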

How the data were processed

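Of the 4 ATAC-seq libraries, grouped by sample title, values came from 2 tables of peaks in hg38. The tools given in the submitters' processing notes are MACS2 2.1.2, Bowtie2, cutadapt, deepTools, SAMtools and ChIPseeker, without settings. Read shifting, duplicate removal and scaling are not given in the sources used here. Per the file headers, the second table holds log2 levels of the libraries numbered 2 with the log2 fold change between them, a p-value and a p-value adjusted over all peaks. Columns of the first are only numbered, so its deposited mean log2 level, fold change and p-values were told by order and range. A further 2 columns were not used, because their libraries are not named.

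Reads were recovered by raising 2 to the deposited level. All of 401 knockout and 170 control values up to 5 lay within 0.0055 of whole reads, after division by 0.918 for the control (100%). Levels have 2 decimals, so larger counts are known to within 0.347%. Depth behind the first table is unknown. Peaks were joined one to one at 1 bp of overlap or more. Promoter means within 3 kb of a start in the authors' annotation. Peaks of the second table took gene and class from the joined peak of the first, and unjoined peaks were given none. Level adjustment subtracts the median of 20 bins by mean level. Regional medians use peaks within 2.5 Mb not credited to the same gene, where at least 10 exist. Unjoined peaks of the second table carry no gene and all count as neighbours, among them the peak inside UBASH3B. Intervals are Clopper-Pearson at 95%. On simulated counts for the 13577 peaks of the second table they covered the true value in 95.4%. They left the median at 95.5% of 200 peaks changed by 1 and at 4.6% of unchanged peaks. That simulation had counting error only and set every unchanged peak at the median. In the data 16.7% of all peaks had an interval below the median and 16.7% above it, so these rates do not carry over. All member peaks were named and, per list, the 2 lowest and 2 highest promoters. Members and lists were chosen with earlier results of these data known. The planned count test was not run, since counts of all 4 libraries were not analysed here. Python 3.11.15, numpy 2.4.6, pandas 2.3.3, scipy 1.17.1 and matplotlib 3.10.9 were used.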

Additional observations from a re-analysis of the deposited data

How the results depend on the processing

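No paired analysis was possible because the first table names no library, so leaving out a replicate, the replicate block and count models across groups were not run. Values move by construction once the shift shared by all peaks is subtracted. Peaks at -1 or lower then numbered 0 in both tables, whether centred on the table median, adjusted for level or adjusted for region. The members' median became -0.055, 0 and -0.015 in the first table and 0.035, 0.035 and 0.06 in the second under those 3 adjustments. That of promoters became -0.06, 0.06 and 0.055 in the first and -0.40, -0.35 and 0.04 in the second, and the regional value leaves out ROBO1, which has too few neighbours. Among peaks at or above the median level, 5 of 10 and 3 of 4 stood at -1 or lower. A threshold of -0.5 gave 17 and 10 peaks, and one of -1.5 gave 1 and 3. The shares of all peaks at these thresholds and at that level were not taken, so nothing is read from these counts. The quartiles of all peaks were -1.17 and -0.53 in the first table and -1.43 and -1.01 in the second. Most peaks of both tables therefore also stood at -0.5 or lower. The adjusted p threshold, overlap of 50%, promoters within 1 kb, the median over a gene's promoter peaks, and, chosen after seeing the data, every overlapping peak changed no count by over 1.5 times and no median by more than the SD over member peaks (0.36 and 0.381). The depth of the second table limits single peaks: at 49 to 290 knockout reads the intervals span 0.383 to 0.938.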

Other observations

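One peak of the second table lies inside UBASH3B and overlaps no peak of the first. It is on chromosome 11 at 122781308 to 122781918 and held 57 knockout reads against 87.4 normalised control reads. Its fold change was -0.61 in the second of the authors' deposited tables (95% counting interval -1.11 to -0.12), and 94.0% of all peaks were lower. The interval lies above the median of -1.23. With it, 3 of the 6 UBASH3B peaks of the second table had an interval above the median, against 16.7% of all peaks; the 3 are the promoter and the 2 peaks farthest into the gene, and this grouping was noticed after the values were seen.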
